A study of Mus musculus with 16 samples.

Results

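Peg10, Sgce, Mest and Nap1l5 are the imprinted genes of mouse chromosome 6 examined here. Their CpGs were taken from the deposited table as all those on chromosome 6 between 2000 bp before the start and the end of each gene (GENCODE M21, mm10), which gave 218 of the 1203687 CpGs measured, chosen by position and not by level. Peg10 contributed 73 CpGs, Sgce 123 (the 73 of Peg10 among them), Mest 68 and Nap1l5 27.

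The cells were immortalised mouse embryonic fibroblasts (MEFs). The parental lines, MEF-1 and MEF-2, came from sibling C57BL/6J embryos at embryonic day 13.5, a male and a female in that order, and had been immortalised by serial passaging. From each, 7 clonal lines were grown out of single sorted cells, and all 16 lines were profiled by target capture bisulfite sequencing (tcBS-seq), in which probes enrich chosen regions, bisulfite converts unmethylated cytosines, and the methylation level of a CpG is the percentage of its reads that stayed methylated. A parental line and its 7 clonal lines are called a family below. Each parental line was sequenced once and each family descends from 1 embryo, so family, sex and individual culture cannot be told apart. Expression was not analysed here, so the fibroblast identity was not checked against marker genes. Because the embryos were inbred, reads could not be assigned to the maternal or paternal copy.

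An imprinted gene is expressed from the copy of 1 parent. Its control region receives methylation in the germ line, at the loci studied here in the oocyte, and keeps it on the maternal copy in every tissue while the paternal copy stays unmethylated, so a cell population that keeps the imprint sits close to 50%. Peg10 is derived from a retrotransposon and is needed for the placenta. Sgce encodes epsilon-sarcoglycan, a membrane protein, and is transcribed in the opposite direction from a start next to that of Peg10. Mest, the mesoderm-specific transcript, encodes a hydrolase-like protein. Nap1l5 is a small gene without introns, related to the nucleosome assembly proteins, that lies inside an intron of Herc3. All 4 are known as genes expressed from the paternal copy.

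Across the libraries the tables held 59243669 to 90633091 calls, where 1 call is 1 read over 1 CpG. Coverage of chromosome 6 relative to the median autosome was 0.912 to 1.04 of the median MEF-2 clonal line in the MEF-1 family and 0.993 to 1.06 in the MEF-2 family, and in the 10 Mb around each locus it was 0.980 to 1.07 over all 16 libraries. The 0.912 was MEF-1 line 6, which had 1.01 to 1.03 around the loci, and every other library had at least 0.993 over the chromosome. MEF-1 clonal lines 1, 4 and 5 were closer to each other over chromosome 6 (mean absolute level difference of 6.50 to 6.64 points) than the other pairs of MEF-1 lines (7.28 to 8.83 points). In the imprinted stretches described below the same 3 pairs differed by 12.6 to 17.8 points and the other pairs by 8.49 to 18.2 points.

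To locate the imprint in each gene from the parental lines alone, the longest run of CpGs whose mean parental level was 30 to 70% was taken (at most 2 CpGs in a row outside these bounds, no gap over 500 bp). Runs of this kind are called half-methylated stretches, and Peg10 and Sgce shared 1. The 3 stretches held 113 of the 218 CpGs.

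The Peg10-Sgce stretch (chr6:4747789-4748838, 73 CpGs over 1050 bp) lay wholly in an intron of Peg10 (ENSMUSG00000092035, chr6:4747306-4760517, plus strand). Seen from Sgce (ENSMUSG00000004631, chr6:4674350-4747207, minus strand) it lay 582 to 1631 bp before the start. All measured CpGs of the Peg10 window were in this stretch, so its edges are those of the measured CpGs. The nearest CpG before it that met the minimum of 10 reads was at 4740239, so none was measured at the start of Peg10 or Sgce at that minimum. With at least 5 reads the Peg10 window held 120 CpGs, 75 of them within the bounds of the stretch. The levels of those outside it were not examined by themselves. Whether the half-methylated level extends over the starts was therefore not seen. The Mest stretch (chr6:30738325-30738848, 27 CpGs over 524 bp) lay 270 to 793 bp from the nearest annotated start within Mest (ENSMUSG00000051855, chr6:30723547-30748465, plus strand). Of its CpGs, 2 were in an exon that is coding in an annotated isoform, 18 were in an intron, and 7 were in an exon of a noncoding isoform. The Nap1l5 stretch (chr6:58906724-58906877, 13 CpGs over 154 bp) lay in the coding exon of Nap1l5 (ENSMUSG00000055430, chr6:58905233-58907076, minus strand) and so inside Herc3.

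The sequences below show how the measured CpGs sit in each stretch. They are the plus strand of the reference (RefSeq, GRCm38.p6, the sequence also called mm10), with every CpG of the deposited table in capitals. The Peg10-Sgce run is chr6:4748083-4748382 with 31 measured CpGs, the Mest run is chr6:30738336-30738635 with 15, and the Nap1l5 run is the whole stretch, chr6:58906724-58906878 with 13.
Peg10-Sgce: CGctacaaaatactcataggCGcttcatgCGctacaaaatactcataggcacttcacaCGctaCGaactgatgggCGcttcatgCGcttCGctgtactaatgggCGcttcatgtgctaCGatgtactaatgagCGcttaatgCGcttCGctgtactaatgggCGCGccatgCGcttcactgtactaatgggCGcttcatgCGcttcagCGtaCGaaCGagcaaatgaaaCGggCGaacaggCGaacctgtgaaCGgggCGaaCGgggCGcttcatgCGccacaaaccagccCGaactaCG
Mest: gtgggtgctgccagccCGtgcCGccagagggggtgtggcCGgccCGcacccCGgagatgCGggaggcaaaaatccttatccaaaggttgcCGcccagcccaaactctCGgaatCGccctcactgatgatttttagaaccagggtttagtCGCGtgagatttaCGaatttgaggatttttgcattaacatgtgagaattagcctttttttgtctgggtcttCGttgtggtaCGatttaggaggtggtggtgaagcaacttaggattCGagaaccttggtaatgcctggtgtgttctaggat
Nap1l5: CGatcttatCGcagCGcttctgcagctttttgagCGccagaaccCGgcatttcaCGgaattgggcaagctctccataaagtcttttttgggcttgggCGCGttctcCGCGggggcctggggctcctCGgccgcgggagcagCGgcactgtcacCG

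The Peg10-Sgce run is repetitive. Bases 29 bp apart were identical at 63.8% of its positions, against a median of 24.8% over all spacings from 10 to 60 bp, and over the whole stretch at 45.4% against 25%. The best spacing of the Mest run (28 bp) reached 33.5% against a median of 27.2%, and that of the shorter Nap1l5 run (33 bp) reached 40.2% against 26.5%. Per 100 bp the reference held 7.14 CpGs in the Peg10-Sgce stretch, 5.14 in Mest and 9.68 in Nap1l5, with a GC content of 52.0%, 51.2% and 61.9%.

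ZFP57, a zinc finger protein that keeps imprints methylated in the early embryo, is known to recognise the hexamer TGCCGC when its CpG is methylated. Read on both strands, with overlaps allowed, the hexamer occurred 2 times in the Peg10-Sgce stretch, 3 times in Mest and 1 time in Nap1l5. Of all 300 bp promoter windows of the reference set (250 bp before to 50 bp after a start, 32817 windows), 11.6% held it at least 1 time. The stretches (1050, 524 and 154 bp) were not matched to these windows in length or CpG density, so an excess cannot be read from this share. The printed 300 bp run of Peg10-Sgce held 0 hexamers. All 6 CpGs within a hexamer were measured. Their clonal means were 48.0% ± 12.7 to 59.2% ± 14.8 among the MEF-1 lines and 47.9% ± 10.8 to 55.7% ± 10.6 among the MEF-2 lines (SD, n = 7 each). The CpG at 4748494 had the highest MEF-1 mean of the Peg10-Sgce stretch, and that at 58906865 the lowest MEF-2 mean of the Nap1l5 stretch.

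The level of each stretch was compared between the families to ask whether lines of different origin hold the imprint at the same level. At Peg10-Sgce the parental lines had 48.6% and 59.7% (MEF-1 and MEF-2), with 95% Wilson intervals of the pooled reads of 46.8 to 50.4% and 57.8 to 61.1%. The MEF-1 clonal lines had 39.9% at the lowest, 48.6% at the median and 57.9% at the highest, and the MEF-2 clonal lines had 38.2%, 49.0% and 57.7%. The ranges of the families almost coincided. Their means, 48.4% ± 5.94 and 47.5% ± 7.13 (SD, n = 7 each), differed by 0.923 points, less than the spread between lines (two-sided exact permutation test of 7 against 7 lines, p = 0.800, adjusted over the 3 stretches 0.800). Differences from -6.7 to 8.7 points were not refused by the same test at the 95% level.

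At Mest the parental lines had 45.5% (43.0 to 48.1%) and 46.3% (43.3 to 48.3%). The MEF-1 clonal lines ran from 43.5% over a median of 52.5% to 54.9%, and the MEF-2 clonal lines from 46.2% over 49.5% to 54.2%. Mest was the most uniform of the 3 stretches, and no line was below 40% or above 60%. The means of 50.3% ± 4.43 and 49.5% ± 2.67 (SD, n = 7 each) differed by 0.817 points (exact permutation test, p = 0.679, adjusted 0.800, with an interval of -3.4 to 5.1 points).

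At Nap1l5 the parental lines had 58.9% (51.3 to 66.3%) and 45.7% (40.8 to 50.7%). The MEF-1 clonal lines ran from 42.2% over a median of 54.9% to 79.0%, and the MEF-2 clonal lines from 44.4% over 63.7% to 80.9%. MEF-1 line 1 (79.0%) and MEF-2 lines 4 (80.9%) and 1 (70.6%) were the 3 highest, and the lowest line of either family stayed above 40%. The means of 55.7% ± 13.02 and 63.2% ± 11.4 (SD, n = 7 each) differed by -7.51 points, which the spread between lines covered (exact permutation test, p = 0.269, adjusted 0.800, with an interval of -21.5 to 6.9 points). Nap1l5 was also the least deeply covered, with a median of 18 reads per CpG against 33 at Peg10-Sgce and 43 at Mest.

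**Figure D1:**
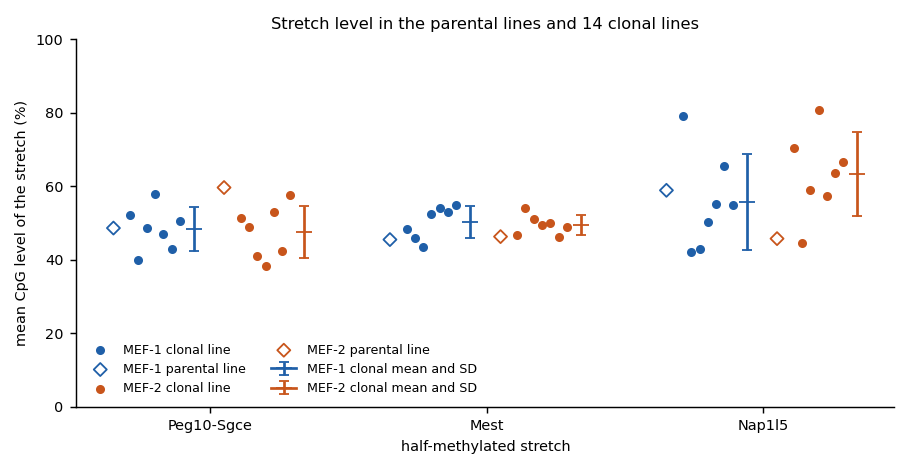
Mean CpG level of each half-methylated stretch (vertical axis, %) in the parental lines (open diamonds), in each clonal line (dots, 7 per family) and as clonal mean with SD (bars). Mest lines lie between 43.5 and 54.9%, whereas Nap1l5 lines spread from 42.2 to 80.9%.

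The spread between lines was set beside what read sampling gives. If every CpG of a stretch were read on separate molecules, sampling would give an SD of 1.03 points at Peg10-Sgce, 1.62 at Mest and 3.16 at Nap1l5 in the MEF-1 lines. If all CpGs were read on the same molecules, it would give 8.52, 7.55 and 11.5 points. The SDs seen in the MEF-1 lines (5.94, 4.43 and 13.02 points) were above the first value in each stretch and above the second at Nap1l5 alone, and those of the MEF-2 lines (7.13, 2.67 and 11.4 points, against upper values of 8.32, 7.55 and 10.9) likewise. The Wilson intervals of the parental lines take every call as a separate molecule, so they are too narrow where a read covers more than 1 CpG. Libraries were amplified by PCR without molecular identifiers, so these values and the Wilson intervals cover counting error at most.

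Clonal lines were next compared with their own parental line. At Peg10-Sgce all 7 MEF-2 clonal lines were below the MEF-2 parental line, by 12.2 points on average, whereas the MEF-1 clonal lines differed from theirs by -0.192 points with 3 lines above and 4 below. At Nap1l5 the MEF-2 clonal lines were 17.5 points above their parental line (6 of 7 lines), and the MEF-1 clonal lines 3.17 points below it on average with 2 lines above (shift of -3.17). At Mest the clonal lines were 4.83 points above in MEF-1 and 3.20 points above in MEF-2, with 6 of 7 lines above in each family. None of the 6 shifts passed the threshold after adjustment (exact sign-flip tests, two-sided, p = 0.0156 to 0.953, adjusted p = 0.0625 to 0.953), and 0.0156 is the smallest p that 7 lines allow. Without MEF-1 line 3, 4 of the 6 shifts passed (exact sign-flip tests, adjusted p = 0.0469), 3 of them MEF-2 shifts that this line does not enter and whose own p did not change. The test takes the level of the parental library, which was sequenced once, as fixed. That level also entered the choice of the CpGs of the stretches, and the part of this in the shifts was not tested.

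The MEF-1 shift minus the MEF-2 shift was 12.0 points at Peg10-Sgce, 1.63 points at Mest and -20.7 points at Nap1l5. The level of the MEF-1 parental library minus that of the MEF-2 parental library was -11.0 points at Peg10-Sgce and 13.2 points at Nap1l5. With 1 parental library in each family the spread of this gap is unknown, so whether the shifts differ between the families could not be tested. Without MEF-1 lines 1, 4 and 5 the value at Peg10-Sgce was 9.02 points.

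Along the Peg10-Sgce stretch the clonal mean of single CpGs ranged from 36.1 to 59.2% in MEF-1 and from 36.1 to 56.6% in MEF-2. The corresponding ranges were 45.1 to 59.9% and 45.3 to 52.7% at Mest, and 51.8 to 62.1% and 55.7 to 68.1% at Nap1l5. No CpG of a stretch therefore had a family mean near 0 or 100%. The choice of the stretches by parental level favours this, so it is not a separate result. Within a line, nearby CpGs had closer levels than distant ones. At Peg10-Sgce CpGs of a MEF-1 line differed by 5.26 points on average at distances up to 50 bp and by 14.7 points at 301 to 600 bp, and those of a MEF-2 line by 5.86 and 12.9 points. At Mest the same distances gave 5.23 and 9.76 points in MEF-1 and 4.85 and 11.0 points in MEF-2. Nearby CpGs are covered in part by the same reads, and the part of this in the closeness was not tested.

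**Figure D2:**
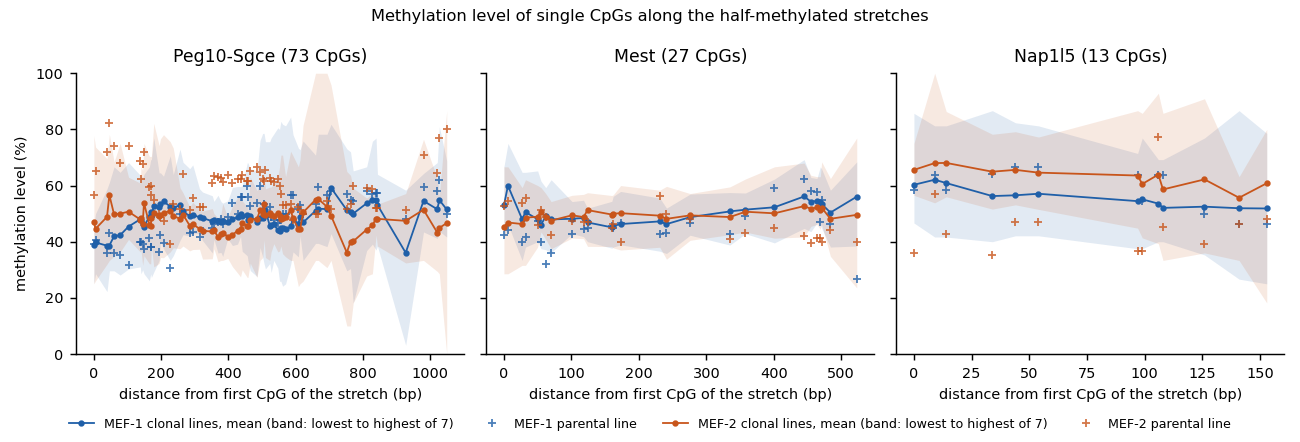
Methylation level (vertical axis, %) of single CpGs against the distance from the first CpG of the stretch (bp), as clonal mean per family (joined dots), range over the 7 clonal lines (bands) and parental lines (crosses). The means stay between 36.1 and 68.1% in all 3 stretches, and the parental MEF-2 crosses lie above the clonal mean at 66 of 73 CpGs of Peg10-Sgce and at 1 of 13 of Nap1l5.

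Calls far from 50% were rare in the stretches, which were chosen by parental level. Of 1582 calls in the stretches (113 CpGs in 14 clonal lines), 3 were under 10% and 7 over 90%. The CpG at chr6 position 4748716 in the Peg10-Sgce stretch was read methylated 1 time in 32 reads in MEF-1 line 3 and 1 time in 28 reads in MEF-1 line 7 (3.12% and 3.57%), while the stretch had 48.6% and 50.5% in these lines and the other 12 lines had 32.4 to 58.3% at this CpG. In MEF-2 line 1 the CpGs at 4748448, 4748456 and 4748482 were methylated in all 19, 19 and 20 reads, and those at 4748541 and 4748552 had 10.0% each, with a stretch mean of 51.3%. MEF-2 line 5 had 0 of 13 reads methylated at 4748838, the last CpG of the stretch. At Nap1l5 3 calls were over 90%, all in MEF-2 lines. They were 58906733 in line 1 (100%) and 58906830 and 58906850 in line 4 (92.9% and 90.9%). The stretch had 70.6% and 80.9% in these lines. Mest had no call under 10% or over 90%.

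The share of CpGs at 40 to 60%, the level that 1 methylated copy of 2 gives, was then compared with the other half-methylated CpGs of chromosome 6 (mean parental level 30 to 70%, outside the 4 genes, 11443 CpGs). The question was how often imprinted CpGs of clonal lines were at that level, beside others on the same chromosome that met the bounds on the parental mean. Over all stretches 62.9% ± 11.0 (SD, n = 14 lines) of the CpGs of a clonal line were at 40 to 60%, against 31.4% ± 2.58 of the others. At these others MEF-1 line 6, with the lower coverage of chromosome 6, had 29.3% and the remaining MEF-1 lines 33.3 to 34.9%. Without line 6 the gap over all stretches was 31.1 points. The share was higher in 14 of 14 lines, by 31.5 points on average (exact sign-flip test, p = 0.000122, the smallest that 14 lines allow, adjusted over 4 comparisons 0.000163). Mest had 80.7% ± 9.66 and Peg10-Sgce 59.5% ± 13.7, both higher in 14 of 14 lines (49.3 and 28.1 points, adjusted p = 0.000163 each by the same exact test). Mest was also covered more deeply, with a median of 39 and 43 reads (MEF-1 and MEF-2 clonal lines). Peg10-Sgce and the other CpGs had 31 and 33. With every CpG thinned at random to 10 reads, the shares were 66.7% at Mest, 60.8% at Peg10-Sgce, 49.5% at Nap1l5 and 33.6% at the others. Nap1l5 had 45.1% ± 33.3, with 0% in MEF-1 line 1 and 92.3% in MEF-1 line 4, and was higher in 8 of 14 lines, a difference of 13.6 points that the spread covered (exact sign-flip test, p = 0.133, adjusted 0.133). With levels of 30 to 70% counted instead, the Nap1l5 difference was 27.4 points in 12 of 14 lines and passed the threshold (exact sign-flip test, adjusted p = 0.00757).

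The stretches were taken as runs of neighbouring CpGs and the others CpG by CpG. The p-values therefore cannot be read as a result of imprinting. The sets already differed in the parental lines. In these, 78.8% (MEF-1) and 60.2% (MEF-2) of the CpGs of the stretches were at 40 to 60%, against 39.99% and 35.01% of the other CpGs. The clonal means were 63.8% and 61.9% in the stretches and 33.3% and 29.5% at the other CpGs, so the gap was present before cloning and the test does not compare how often the level was kept. The comparison set also holds CpGs whose parental lines lay far apart. With each parental level required to be 30 to 70% by itself, a choice made after seeing the data, 4308 other CpGs and 103 CpGs of the stretches remained, with 42.1% and 64.1% of them at 40 to 60%. The share was then higher in 14 of 14 lines for all stretches and for Mest, in 12 of 14 for Peg10-Sgce and in 8 of 14 for Nap1l5 (45.2% against 42.1%). Levels under 10% made up 13.3% and levels of 90% or more 14.6% of the calls at the 11443 other CpGs, against 0.190% and 0.442% in the stretches. These 11443 include the CpGs whose parental lines lay far apart. The part of this in the extreme levels was not tested.

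**Figure D3:**
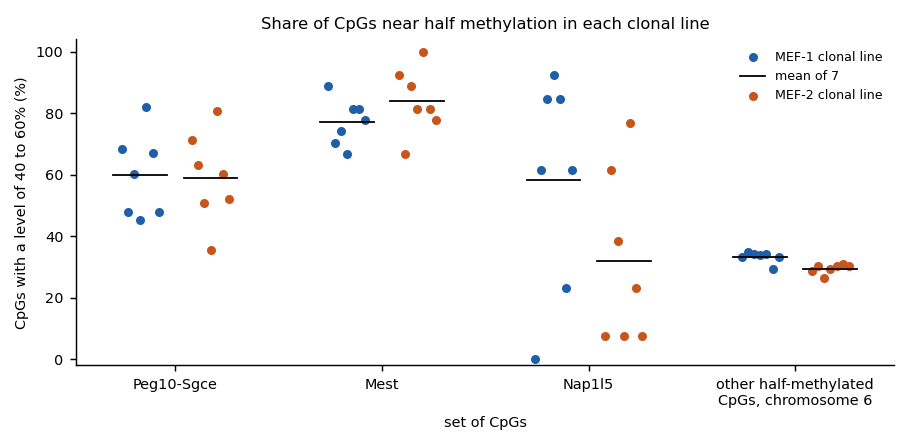
Share of CpGs at 40 to 60% (vertical axis, %) in each clonal line (dots, 7 per family, with their mean as a bar) for the 3 stretches and the 11443 other half-methylated CpGs of chromosome 6. All Mest and Peg10-Sgce dots lie above the other CpGs of the same line, and Nap1l5 runs from 0 to 92.3%.

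**Figure D4:**
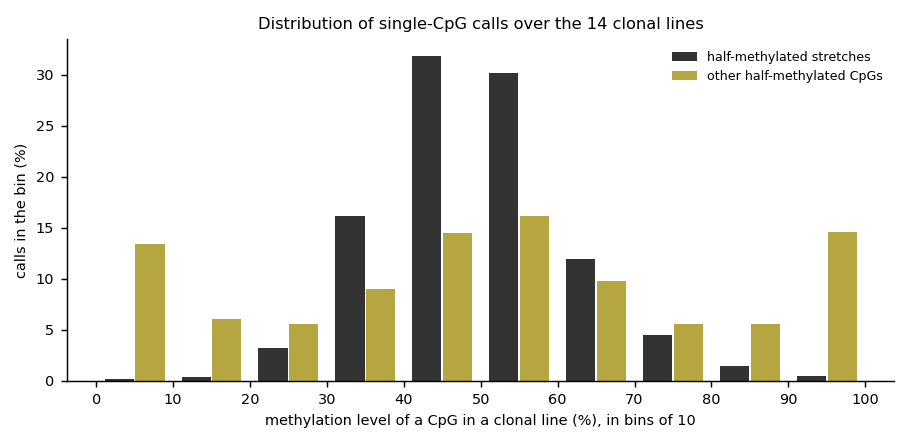
Distribution of single-CpG levels in the 14 clonal lines (horizontal axis, %, in bins of 10) as a percentage of all calls, for the stretches (1582 calls) and the other half-methylated CpGs of chromosome 6 (160202 calls). The stretches form 1 peak between 30 and 70%, and the other CpGs have further peaks at both ends, with 13.3% and 14.6% of calls. The other CpGs were chosen by the mean of both parental levels and include CpGs whose parental lines lay far apart.

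CpGs with a family difference among the clonal lines were called with a quasi-binomial model of the methylated and unmethylated counts, fitted to the whole table and adjusted over all of it (Benjamini-Hochberg, adjusted p under 0.05). Over all CpGs 20.2% were called, 11.6% higher in MEF-1 and 8.53% higher in MEF-2. Of the 113 CpGs in the stretches the quasi-binomial model called 0, with 1 at an unadjusted p under 0.05. Among the other half-methylated CpGs of chromosome 6 it called 44.7%, and among those with each parental level at 30 to 70%, 14.1%. The median absolute family difference of a CpG was 4.05 points in the stretches, 27.4 points at the other half-methylated CpGs and 12.1 points at those with both parental levels in the bounds. Over chromosome 6 as a whole 19.8% were called.

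The CpG with the largest difference in the Peg10-Sgce stretch, at chr6 position 4747835, had 38.6% ± 10.8 and 56.6% ± 17.3 (SD, n = 7 lines of MEF-1 and of MEF-2), a difference of -18.0 points, and also the smallest adjusted p of the stretch (0.135). In Mest the CpG at 30738331 had 59.9% ± 12.5 and 46.8% ± 12.6 (13.1 points, adjusted p = 0.318, quasi-binomial model). In Nap1l5 the largest difference was -10.4 points at 58906830 and the smallest adjusted p 0.426 at 58906768, with 56.5% ± 14.4 and 65.6% ± 8.15.

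Calls were found outside the stretches. Of the remaining 105 CpGs of the 4 windows, 16 were called (15.2%, against 20.2% of all CpGs), 11 higher in MEF-1 and 5 higher in MEF-2. They comprised 9 of 50 in Sgce, 3 of 41 in Mest and 4 of 14 in Nap1l5. Most of the remaining CpGs of Sgce and Nap1l5 were methylated, with both family means at 90% or more at 27 of 50 CpGs in Sgce, 10 of 41 in Mest and 9 of 14 in Nap1l5.

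Among the called CpGs of Sgce were 3 neighbouring intronic ones in the gene body. The share of all CpGs of the table whose line ranges do not overlap between the families was not computed. At 4685213 the MEF-1 lines had 40.4 to 67.2% and the MEF-2 lines 0 to 13.6%. At 4685223 the MEF-1 lines had 91.7 to 100% and the MEF-2 lines 15.3 to 60.5%, and at 4685242 they had 95.5 to 100% and 27.1 to 55.6%. The differences were 44.6, 51 and 55.9 points (adjusted p = 3.45e-05, 2.41e-05 and 7.08e-07, quasi-binomial model), and the parental lines had 45.1% and 6.25%, 96.2% and 40%, and 84.6% and 37.7%. The CpG at 4738455, in an exon of a noncoding Sgce isoform, went the other way, with 28.6 to 77.3% in MEF-1 and 94.3 to 100% in MEF-2 (-45.3 points, quasi-binomial model, adjusted p = 4.14e-05). At 4739783 all 7 MEF-1 lines had 100%, and the MEF-2 lines ranged from 13.04 to 100%.

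In Mest the called CpGs were 30732524, 30732821 and 30737200. The first lay 556 bp from an annotated start and had 91.7 to 100% in the MEF-1 lines but 0 to 57.9% in the MEF-2 lines (70.4 points, quasi-binomial model, adjusted p = 0.000557). In Nap1l5 the 4 called CpGs lay in its untranslated region. Of these, 58905780 had 89.5 to 100% in MEF-1 and 32.3 to 80% in MEF-2 (34.4 points, adjusted p = 0.000422), and 58906085 had 44.8 to 68.9% in MEF-1 and 85.4 to 97.6% in MEF-2 (-36.5 points, adjusted p = 1.39e-05, quasi-binomial model throughout). These CpGs were within the same genes as the stretches that had no call.

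The rule for stretches found 3 further runs of at least 5 CpGs in the windows. In Mest, 11 CpGs at chr6:30735713-30735901 had 39.5% ± 5.52 (MEF-1) and 44.2% ± 6.70 (MEF-2), and 11 CpGs at chr6:30736965-30737379 had 56.2% ± 7.16 and 45.8% ± 7.31 (SD, n = 7 each). Both lay upstream of the main stretch. In Sgce, 5 CpGs at chr6:4739941-4740239 had 44.5% ± 7.53 and 54.4% ± 7.19. Of these 27 CpGs 1 was called, 30737200, with 31.2 to 73.9% in the MEF-1 lines and 0 to 47.4% in the MEF-2 lines.

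Averaged over the whole window, no gene differed between the families after adjustment over the 4 genes (exact permutation tests). Mest had 60.2% ± 2.34 in MEF-1 and 57.8% ± 2.06 in MEF-2 (2.37 points, exact permutation p = 0.0682, adjusted 0.273), Sgce 61.01% ± 3.87 and 59.98% ± 3.94 (adjusted 0.800), and Nap1l5 74.7% ± 6.81 and 76.3% ± 4.06 (adjusted 0.800). The window of Peg10 is its stretch. Without the stretches, Sgce had 79.4% ± 1.18 and 78.2% ± 1.41 (1.20 points, p = 0.113), Mest 66.7% ± 2.18 and 63.3% ± 3.61 (3.39 points, p = 0.0408) and Nap1l5 92.3% ± 2.13 and 88.4% ± 3.38 (3.89 points, p = 0.0303), with these 3 exact permutation p-values not adjusted. Within 1000 bp of a Mest start but outside the stretch, 27 CpGs had 79.3% ± 3.22 and 73.0% ± 3.19 (6.36 points, exact permutation p = 0.00350, not adjusted). These include all 3 called Mest CpGs named above. The same zone of Sgce (13 CpGs) had 76.0% ± 2.70 and 75.4% ± 3.48 (exact permutation p = 0.660, not adjusted). That of Nap1l5 is its window without the stretch.

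The genes around the members were taken from a list of 23, of which 21 had measured CpGs. Between the families 9 of these 21 windows were called (42.9%), 5 higher in MEF-1 and 4 higher in MEF-2, with a median difference of 0.0634 points (exact permutation tests, adjusted over the 21 genes). The share called over the windows of all genes was not computed, so 42.9% has no baseline here. Among genes with at least 5 CpGs the largest differences towards MEF-1 were at Cpa5, a carboxypeptidase gene near Mest (55.0% ± 6.26 against 24.2% ± 4.12, 30.8 points over 5 CpGs, exact permutation test, adjusted p = 0.00245), Tsga13 (63.6% ± 2.78 against 51.8% ± 5.60) and Copg2, a coat protein subunit gene near Mest (61.9% ± 3.89 against 52.7% ± 5.55). Towards MEF-2 they were at Herc6 (24.9% ± 1.26 against 33.4% ± 2.25), Cep41 (67.0% ± 2.19 against 74.6% ± 2.24) and Casd1, near Sgce (58.1% ± 1.17 against 65.3% ± 1.39). Herc3, the host of Nap1l5, had 71.1% ± 2.26 and 72.56% ± 1.81 (exact permutation test, adjusted p = 0.297). Its 87 CpGs hold those of the Nap1l5 window. The 60 CpGs without that window had 69.5% ± 0.907 and 70.9% ± 1.07 (exact permutation p = 0.0227, not adjusted). Copg2 and Tsga13 share part of their measured CpGs, so their differences are not separate. Whether any of these neighbours is itself imprinted was not examined. The difference between this count and that of Peg10, Sgce, Mest and Nap1l5 was not tested.

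The same rule found 165 other stretches of at least 10 half-methylated CpGs on chromosome 6, with a median of 12 CpGs. The family means of 56 of these differed by more than 20 points, with a median absolute difference of 14.8 points and a highest of 76.8 points. The stretches were chosen by the mean of both parental levels, and in 48 of the 165 the parental lines were themselves more than 20 points apart. With each parental level of the stretch at 30 to 70%, a choice made after seeing the data, 120 remained, of which 22 differed by more than 20 points, with a median of 10.3 and a highest of 34.0 points. The largest difference among the 3 imprinted stretches, all of which met these bounds, was 7.51 points. Of 13 other maternally methylated imprinted loci searched by the rule, 11 gave a stretch of at least 10 CpGs (Mcts2, Gnas, Peg3, Inpp5f, Kcnq1ot1, Plagl1, Zrsr1, Grb10, Peg13, Slc38a4 and Airn). None of these differed by more than 20 points, with a median of 6.51 and a highest of 11.7 points. Exact permutation p-values, not adjusted, were 0.00350 at Kcnq1ot1, 0.0140 at Peg3, 0.0245 at Airn and 0.0396 at Gnas, and 0.0513 or more at the rest. The highest values, at Kcnq1ot1 (11.7 points) and Peg3 (10.3 points), were on chromosome 7, whose relative coverage was 0.816 to 1.03 in the MEF-1 clonal lines. Over the 6 chromosomes that hold these loci it ran from 0.784 to 1.28, and its part in the differences was not tested. The SD between lines was also taken over whole stretches. Its median was 5.94 points in MEF-1 and 7.13 in MEF-2 over the imprinted stretches of chromosome 6, 5.16 and 6.07 over the 165 others, and 6.01 and 6.27 over the other imprints. Over single CpGs the median SD was 7.21 and 7.61 points at Mest, 12.3 and 11.2 at Peg10-Sgce and 13.9 and 12.9 at Nap1l5, against 14.7 and 17.5 at the other half-methylated CpGs of chromosome 6. Apart from the p-values given for the other imprints, these are descriptions without a test.

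**Figure D5:**
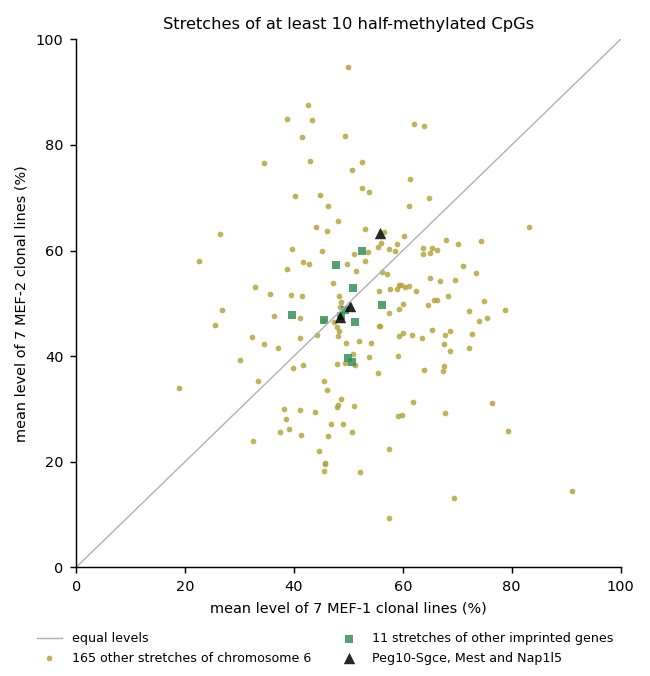
Mean level of the 7 MEF-2 clonal lines against that of the 7 MEF-1 clonal lines (both %) for stretches of at least 10 half-methylated CpGs. The 3 imprinted stretches of chromosome 6 (triangles) and the 11 other imprinted loci (squares) lie within 11.7 points of the line of equal levels, and 56 of the 165 other stretches of chromosome 6 (dots) lie more than 20 points from it, or 22 of the 120 with each parental level at 30 to 70%.

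Whether a line high at 1 imprint was also high at another was examined within each family. Over 7 lines the correlations of the stretch levels ranged from Pearson r = -0.659 (Mest with Nap1l5, MEF-2, Spearman rho = -0.643) to 0.316 (Mest with Nap1l5, MEF-1, rho = 0.464). None of the 6 pairs passed the threshold (exact permutation p of 0.102 or more, adjusted 0.612 or more). Without the 2 lines farthest from the median of the first measure, r was -0.439 and -0.825 for these pairs. Those lines were dropped by their own values and few remained, so no conclusion was drawn from these values. The lines 1 and 4 of MEF-2 that were high at Nap1l5 had 46.8% and 49.5% at Mest and 51.3% and 38.2% at Peg10-Sgce.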

How the data were processed

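The 16 libraries were made by sonication, hybrid capture, bisulfite conversion and PCR. Per the labels and the study's methods, the authors trimmed reads with Trim Galore 0.6.0, aligned them to mm10 with Bismark, kept alignments with a mapping quality of at least 10, combined both strands of a CpG and left out chromosomes 12, 18, 19, X and Y. Removal of PCR duplicates was not given in the sources used here. The deposited table holds methylated and unmethylated read counts per CpG and line, made by the authors from these alignments, and these counts were used. Its 2 further columns of values per line (coverage and percentage) and the authors' fidelity and neighbour scores, which hold their own findings, were not used.

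The level was the percentage of methylated reads, taken at CpGs covered by 10 or more reads in every one of the 16 libraries, and a stretch or window level was the mean over its CpGs. Lines were compared by exact permutation (7 against 7, smallest p 0.000583) or exact sign-flip tests, two-sided, and single CpGs by a quasi-binomial F-test over all 1203687 CpGs, with Benjamini-Hochberg adjustment. p-values over lines take the clonal lines as independent. Named neighbours were the 3 with the largest difference in each direction among genes with at least 5 CpGs, Herc3 and Copg2. Named CpGs were those with the largest difference and the smallest adjusted p in each stretch; called CpGs and extreme calls named beside them were chosen after their values were seen. The genes, stretch rule and gene lists were chosen with earlier results of these data known. Python 3.11.15, numpy 2.4.6, scipy 1.17.1 and pandas 2.3.3 were used, and the scripts were tested on simulated data. Alternatives changed the read minimum, the level bounds, pooling of reads, the lines included and a replicate block.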

Additional observations from a re-analysis of the deposited data

Results flagged for a closer look

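The MEF-1 shift from the parental line minus the MEF-2 shift was 12.0 points at the Peg10-Sgce stretch (all 7 MEF-2 lines below their parental line) and -20.7 points at the Nap1l5 stretch (6 of 7 MEF-2 lines above their parental line). These were picked out because permuting the clonal lines, with the parental levels held fixed, gave a small p (exact permutation test, adjusted p = 0.0149 for each). That test gives no spread to the parental libraries, 1 in each family, whose own gap was -11.0 and 13.2 points, so a difference between the families is not shown. Without MEF-1 lines 1, 4 and 5 the Peg10-Sgce value was 9.02 points (exact permutation test, adjusted p = 0.0773).

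MEF-2 line 4 stood apart from the other MEF-2 lines in the level of the Mest window, at 53.4%. MEF-1 line 5 stood apart from the other MEF-1 lines in the share of CpGs of all stretches at 40 to 60%, at 82.3%. These came from 22 groups of 7 lines examined for a line that stands apart (Dixon's critical value 0.568), and chance flags about 1 in 20 groups.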

How the results depend on the processing

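Of 427 values recomputed under alternatives, 394 kept their direction and side of the threshold. Counts of called CpGs among them were judged by closeness to the main count instead. Some values could not change by construction. Bounds of 20 to 80% gave the same CpGs in every stretch, and leaving out a line leaves the shifts of the other family as they are. The 394 is therefore not a measure of stability. The cause of the changes was not tested. The small family differences changed sign. The Mest stretch difference was -0.180 points with pooled reads, -0.958 with at least 20 reads and -0.196 without MEF-1 lines 1, 4 and 5 (the 3 lines closest to each other over chromosome 6). The Peg10-Sgce stretch difference was -2.02 without those 3 lines. The Mest window difference was -0.547 with at least 5 reads and -2.16 with at least 20, the Nap1l5 window difference 1.48 with at least 20, and without the 3 lines Peg10 had -2.02 and Sgce -1.03. The MEF-1 shift at Peg10-Sgce was 1.48 with at least 20 reads. Replacing each stretch by all CpGs within 1000 bp of an annotated start gave other regions, of 69 CpGs at Peg10-Sgce, 54 at Mest and 27 at Nap1l5, with 13, 27 and 14 CpGs from outside the stretches. In these regions the family difference was -0.0385 points at Peg10-Sgce and 3.59 points at Mest, which passed the threshold (exact permutation test, adjusted p = 0.0245), the MEF-1 shift was 0.207 points at Peg10-Sgce, and the shifts of Mest in MEF-1 (4.47) and Nap1l5 in MEF-2 (7.85) passed the threshold (exact sign-flip tests, adjusted p = 0.0469 each). These values do not describe the stretches themselves. The shift difference, whose alternatives were chosen after seeing the data, was -1.04 at Mest with at least 20 reads and 9.02 at Peg10-Sgce without the 3 lines. The Nap1l5 share difference passed the threshold at 27.4 points with levels of 30 to 70% counted and at 15.9 points when thinned to 10 reads. Leaving out each line in turn gave a stretch difference of -0.655 to 2.62 points at Peg10-Sgce (also its window), 0.0597 to 1.95 at Mest and -11.4 to -4.56 at Nap1l5, shifts of -1.77 to 1.23 (MEF-1) and -13.8 to -10.6 (MEF-2) at Peg10-Sgce, 4.07 to 5.96 (MEF-1) and 2.42 to 3.75 (MEF-2) at Mest and -7.06 to -0.908 (MEF-1) and 14.6 to 20.6 (MEF-2) at Nap1l5, window differences of 0.00338 to 2.07 at Sgce and -3.65 to -0.427 at Nap1l5, and 0 to 1 called CpGs in the stretches (1 without MEF-2 line 6). Without MEF-1 line 3, 4 shifts passed the threshold (exact sign-flip tests, adjusted p = 0.0469).

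With a replicate block on line number, the stretch differences of 0.923, 0.817 and -7.51 points, which pairing leaves as they are by construction, had adjusted p = 0.828, 0.828 and 0.469 (exact tests) and 16 member CpGs were called. The numbers do not pair the lines: deviations of same-numbered lines correlated by 0.000291 to 0.0120 over chromosome 6, and 1 of 7 lines correlated best with its own number. With at least 20 reads no CpG of the Nap1l5 stretch remained, and depth limits that stretch most.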
